A study of Homo sapiens with 32 samples.

Results

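The LSm ring genes *LSM1* to *LSM8* were followed through a pooled CRISPR-knockout screen for cells with altered labeling of KinprolaPKA, a recorder of protein kinase A (PKA) activity. Members were all rows of the deposited sgRNA count table whose Ensembl identifier carries one of these 8 symbols. The library held all 8 genes, with 4 sgRNAs each, which gave 32 sgRNAs of 74552 against 18638 genes. The cells were RKO, an established human colorectal cancer line listed as wild type. In every group these cells stably expressed KinprolaPKA and Cas9 from lentiviral transgenes and carried the Heidelberg CRISPR sublibrary A, which aims at 1 sgRNA per cell. After expansion they were labeled with CPY-CA, a fluorescent HaloTag substrate, and sorted by the ratio of CPY-CA to EGFP, which normalizes the labeling to the amount of recorder. Around 25% of the cells entered the high, 50% the medium and 25% the low population. Medium is named basal in the labels, where a further library of each screen, here T0, is named day0 control. The labels do not say which step of the screen this day stands for. There were 2 screens, labelled replicates 2 and 3, and each gave 1 library of high, medium, low and T0. The screens were done independently, and the populations of 1 screen came from the same culture. What was measured is the number of sgRNA reads in genomic DNA, so more reads stand for more cells carrying that sgRNA. Neither the editing of the LSM genes nor their RNA or protein was measured in these libraries.

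LSm proteins share the fold of the spliceosomal Sm proteins and assemble into rings of 7 that hold the 3′ ends of short-tailed RNAs. LSM2 to LSM7 are common to both main rings, and the remaining subunit sets the place and the task. With LSM1 the ring is cytoplasmic, works with PATL1 and the decapping enzyme and promotes the decay of messenger RNA. With LSM8 the ring is nuclear, binds the uridine-rich 3′ end of U6 small nuclear RNA and takes part in the assembly and recycling of the spliceosome. A screen that holds sgRNAs against each subunit therefore allows the cytoplasmic mark *LSM1*, the nuclear mark *LSM8* and the common subunits to be set side by side.

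The 8 libraries had 23369720 to 31777138 reads, with medians of 260 to 356 reads over sgRNAs. Each library was read on 4 sequencing lanes, whose counts agreed within about the counting noise and were summed to 1 sample. For the values of a gene, reads were scaled to the mean library total. For a fold change, 1 read was added and the log2 difference was taken within a screen, then averaged over the 4 sgRNAs of the gene. limma tested the mean of the 2 screens against 0, with Benjamini-Hochberg adjustment over all entries of the library, and an adjusted p under 0.05 counted as passing. With 2 screens this test leans on a spread pooled over all genes, which takes no account of how few reads a gene has. Each SE given for a gene is the moderated SE of this test, and the limma intervals are built on it. It is not the SE of the 2 screen values alone. Where the screens of a gene lie far apart it is smaller than that SE, and where they lie close together it is larger. As a background served the 278 control sgRNAs that match no human target. Their mean log2 fold change of high over low was −0.11 ± 0.31 (SD over sgRNAs).

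The genes lie apart in the genome (GRCh38, GENCODE release 44). *LSM1* (ENSG00000175324) is on chromosome 8 from 38163335 to 38176730, minus strand, and *LSM2* (ENSG00000204392) on chromosome 6 from 31797396 to 31806966, minus strand. *LSM3* (ENSG00000170860) is on chromosome 3 from 14178817 to 14201122, plus strand, and *LSM6* (ENSG00000164167) on chromosome 4 from 146175703 to 146200000, plus strand. *LSM4* (ENSG00000130520, 18306236 to 18323112) and *LSM7* (ENSG00000130332, 2321520 to 2328611) are both on the minus strand of chromosome 19. *LSM5* (ENSG00000106355, 32485338 to 32495283, minus strand) and *LSM8* (ENSG00000128534, 118184144 to 118204035, plus strand) are both on chromosome 7. The gene now named *LSM8* was once called *NAA38*, a symbol that today belongs to ENSG00000183011, and the members were matched by identifier for that reason.

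Knockout of the 7 genes *LSM2* to *LSM8* gave the same picture, with few cells left after expansion and the remaining cells in the high population more often than those with sgRNAs without a target. *LSM1* stood apart, with an even spread over the populations and no loss that passed the test. In the high versus low comparison, *LSM2* to *LSM8* were 5.11-fold to 8.14-fold enriched and *LSM1* was 1.05-fold, not passing the test. The size depends on the setting, and the 7 genes were 4.12-fold to 5.58-fold enriched with 5 reads added and 4.44-fold to 9.15-fold with reads summed over sgRNAs. Thus 7 of the 8 members were higher in the high population and 0 were lower, against 5.25% of all 18638 genes called higher and 2.73% called lower.

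*LSM1*, the subunit that marks the cytoplasmic ring, kept its reads at every stage. In the screen labelled replicate 2 its sgRNAs summed to 1722 scaled reads at T0, 1609 in low, 1779 in medium and 1685 in high. In the screen labelled replicate 3 these sums were 1803 at T0, 1782 in low, 1920 in medium and 1984 in high. The 4 stages of both screens thus lay within a narrow band. The log2 fold change of high over low was 0.09 and 0.05 in the 2 screens (mean 0.07, SE 0.11, 95% interval −0.17 to 0.31, adjusted p = 0.824, limma), rank 5711 of 18638 from the top.

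*LSM8*, the subunit that marks the nuclear ring, was low in reads after sorting and uneven between the populations. In the screen labelled replicate 2 it had 1117 scaled reads at T0, 88 in low, 165 in medium and 469 in high. In the screen labelled replicate 3 it had 1016 at T0, 60 in low, 154 in medium and 344 in high. Both high libraries lay above both medium libraries, and these above both low libraries, while all 6 lay below T0. This order was not counted over all genes. The log2 fold change of high over low was 2.51 and 3.26 (mean 2.88, SE 0.15, adjusted p = 2.91e-07, limma), rank 17 from the top.

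The subunits common to both rings went the way of *LSM8*. *LSM2* had 1428 and 1082 scaled reads at T0, 51 and 30 in low, 63 and 89 in medium, and 407 and 327 in high (replicates 2 and 3). *LSM3* had 840 and 831 at T0, 156 and 106 in low, 177 and 220 in medium, and 745 and 582 in high. Both high libraries were the highest sorted libraries of each of these 2 genes, and the low ones the lowest. *LSM4* had 573 and 655 at T0, 67 and 66 in low, 134 and 157 in medium, and 361 and 248 in high. *LSM5* had 735 and 658 at T0, 45 and 41 in low, 77 and 113 in medium, and 353 and 261 in high. Here too the 3 populations did not overlap over the 2 screens. *LSM6* had 1322 and 1489 at T0, 83 and 98 in low, 163 and 122 in medium, and 737 and 566 in high. *LSM7* had 864 and 866 at T0, 94 and 60 in low, 176 and 99 in medium, and 596 and 450 in high. The order of low, medium and high was thus the same in both screens for each of these 7 genes, whose sgRNAs together gave as few as 30 scaled reads in a low library. How many of all genes have such an order, or populations that do not overlap, was not counted. The same holds for *LSM8* above.

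**Figure D1:**
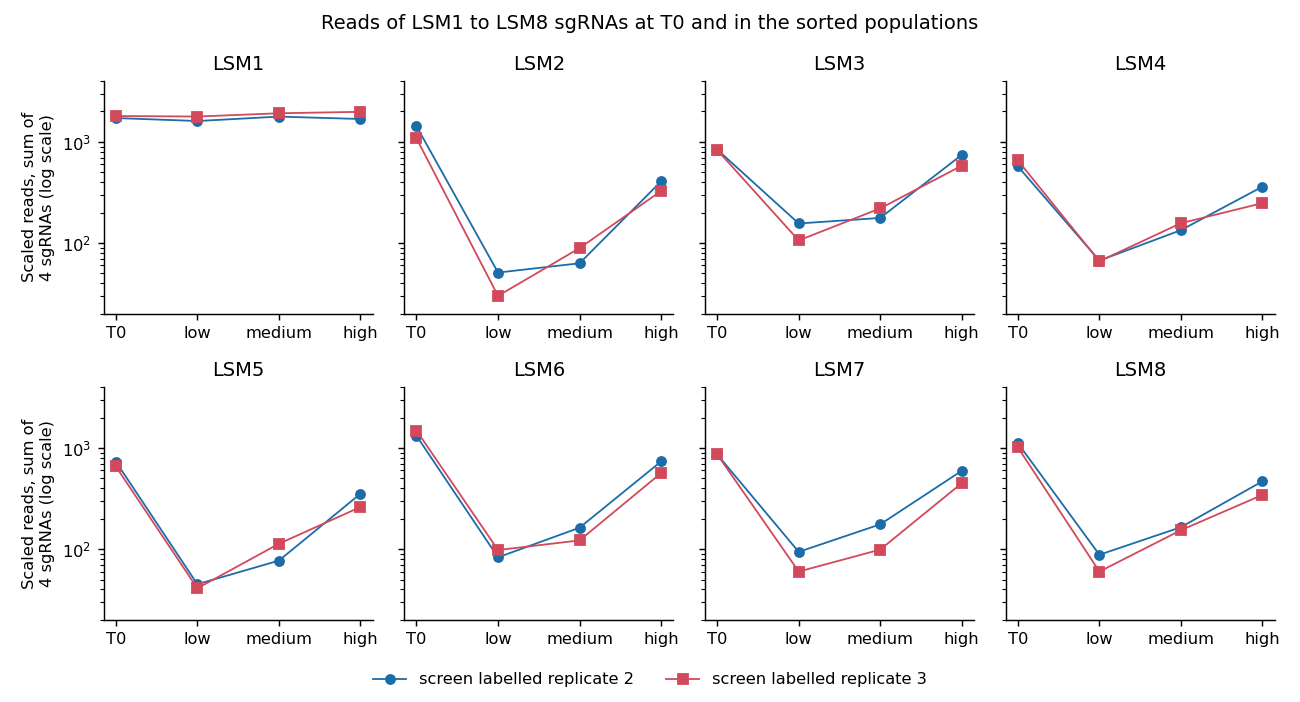
Scaled reads (sum of 4 sgRNAs, log axis) of each LSM gene at T0 and in the low, medium and high populations, with 1 line per screen. *LSM1* runs flat between 1609 and 1984 scaled reads, whereas *LSM2* to *LSM8* fall to between 30 and 156 in low and lie between 248 and 745 in high.

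The fold changes of these common subunits between high and low lay close together. *LSM6* had the highest value of the 8 in this setting, at 3.39 and 2.66 on the log2 scale (mean 3.03, SE 0.15, adjusted p = 2.37e-07, limma) and rank 12 from the top. *LSM4* had 2.60 and 3.11 (mean 2.85, SE 0.13, adjusted p = 1.42e-07), and *LSM5* 2.15 and 3.37 (mean 2.76, SE 0.21, adjusted p = 3.92e-06). Without the low library of replicate 2 *LSM5* was 3.44, and without that of replicate 3 it was 2.09. *LSM2* had 2.49 and 2.41 (mean 2.45, SE 0.11, adjusted p = 1.06e-07), and *LSM3* 2.41 and 2.29 (mean 2.35, SE 0.11, adjusted p = 1.42e-07). The value of *LSM2* averages in sgRNA 3, which had at most 5 raw reads in any library. The gene value was 3.12 over sgRNAs with at least 50 reads at T0 and 3.19 from summed reads. *LSM7* was the least even, at 4.09 and 1.64 (mean 2.87, SE 0.38, adjusted p = 0.000334), and without the low library of replicate 2 it was 1.94 and no longer passed (adjusted p = 0.0537). It was 1.96 without high replicate 2, 3.77 without high replicate 3 and 3.79 without low replicate 3. The SE values of *LSM7* and *LSM5* are moderated by limma and understate how far apart their screens lie. As computed here, the order from the highest down was *LSM6*, *LSM8*, *LSM7*, *LSM4*, *LSM5*, *LSM2*, *LSM3* and *LSM1*. The 95% intervals of neighbours in this order overlapped throughout *LSM6* to *LSM3*, and that of *LSM1* ended below that of *LSM3* (2.11 to 2.59). The order within the 7 genes was not stable. *LSM2* was highest (3.19) and *LSM4* lowest (2.15) with summed reads, *LSM5* was highest (3.24) with the filter at T0 and *LSM7* (3.67) with the median over sgRNAs, while *LSM1* was last in each of these.

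**Figure D2:**
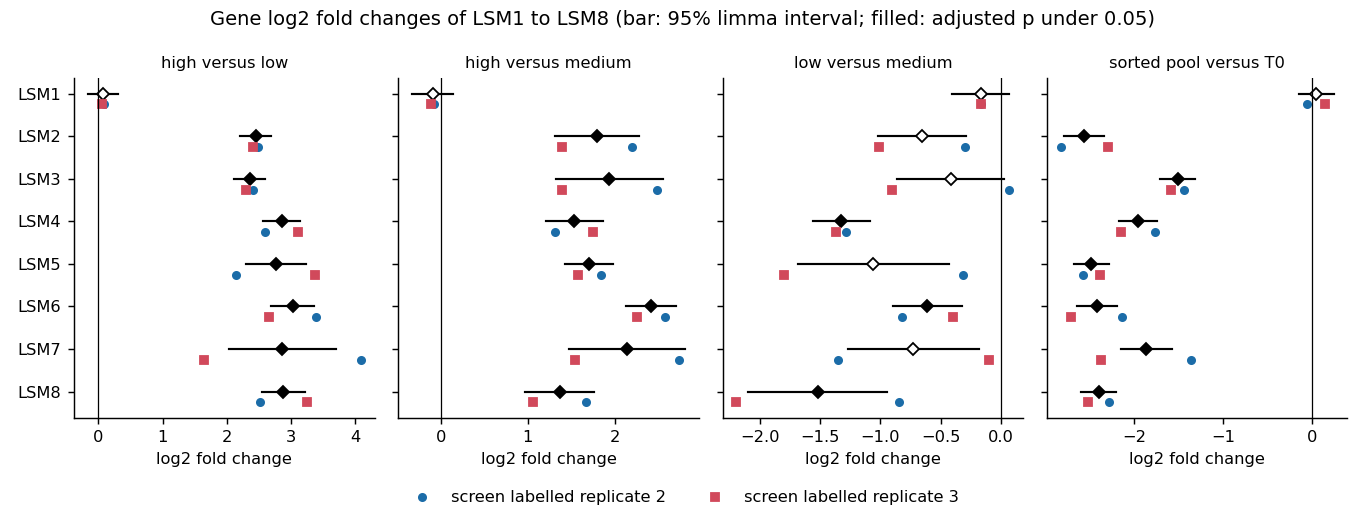
Log2 fold change of each LSM gene in 4 comparisons, with the 2 screens as coloured points, their mean as a diamond (filled where the adjusted p is under 0.05) and the 95% limma interval as a bar. In high versus low, 7 genes lie between 2.35 and 3.03 and *LSM1* at 0.07, and in the sorted pool versus T0 the same 7 lie between −2.57 and −1.51 and *LSM1* at 0.05.

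The reads can also be put as shares. Each population was weighted by its nominal gate (25%, 50% and 25%), and the weighted sum stands for the sorted pool. The sgRNAs without a target were then split as 23.9% ± 0.15 in high, 50.6% ± 0.34 in medium and 25.5% ± 0.19 in low (SD, n = 2 screens). *LSM1* knockout cells were split as 25.3% ± 1.06 in high, 51.2% ± 1.02 in medium and 23.5% ± 0.04 in low, close to the gates. *LSM8* knockout cells were split as 50.6% ± 3.24 in high, 40.2% ± 4.24 in medium and 9.18% ± 0.99 in low. The share in high was 69.7% and 61.3% for *LSM2* in the 2 screens and 64.3% and 62.4% for *LSM6*, the genes with the highest means. It was 51.9% and 39.5% for *LSM4*, the gene with the lowest mean of the 7. The share in low of *LSM2* to *LSM8* ran from 5.54% to 12.4% over both screens, with none near the gate of 25%.

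**Figure D3:**
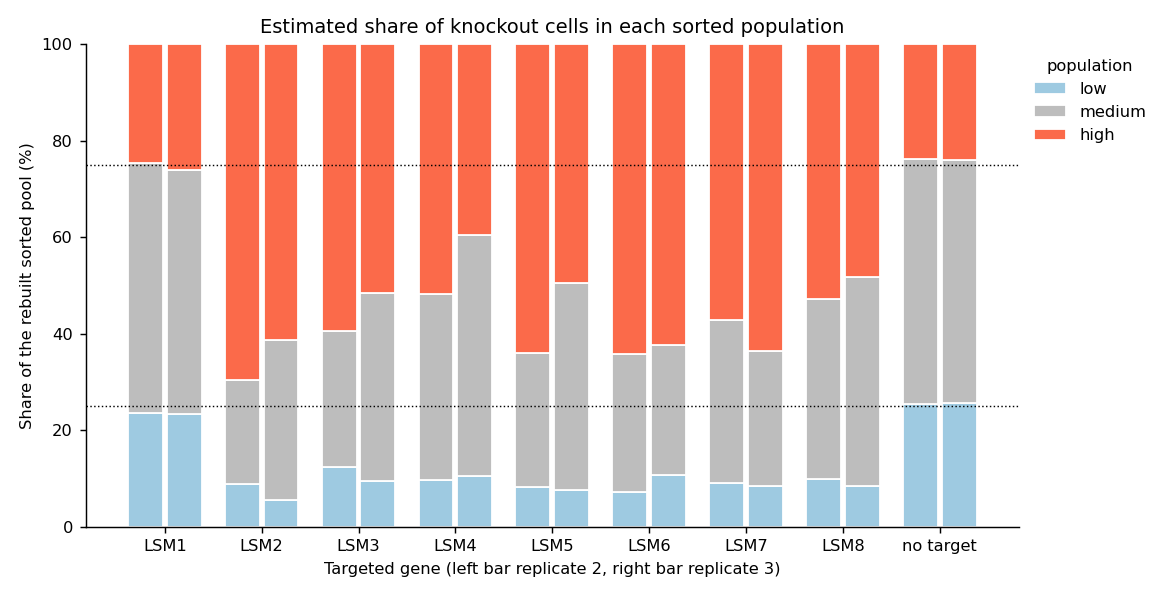
Estimated share of knockout cells in low, medium and high for each LSM gene and for sgRNAs without a target, with 1 bar per screen and dotted lines where the nominal gates would fall. *LSM1* and the sgRNAs without a target follow the gates, whereas the high share of *LSM2* to *LSM8* lies between 39.5% and 69.7%.

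Setting each outer population against medium asked which side carried the difference. In high versus medium, 7 members were higher and 0 lower, against 1.7% of all genes called higher and 0.0966% called lower. *LSM6* (log2 fold change 2.41, SE 0.12, adjusted p = 0.00578, limma) ranked 3 of all genes from the top and *LSM7* (2.14, SE 0.27, adjusted p = 0.0247) ranked 5. The call of *LSM7* was lost in 5 of 12 alternatives, among them the fit of 6 libraries with the screen as a block (adjusted p = 0.0623), and its value was 1.23 without high replicate 2 and 3.05 without high replicate 3. *LSM3* had 1.94 (adjusted p = 0.0264), *LSM2* 1.79 (adjusted p = 0.0151), *LSM5* 1.70 (adjusted p = 0.00578) and *LSM4* 1.53 (adjusted p = 0.0092). *LSM8* had the smallest of these values in this setting, at 1.36 (SE 0.16, adjusted p = 0.0197), and *LSM1* had −0.10 (adjusted p = 0.821). The order within the 7 genes was not stable here either. *LSM4* was lowest with 5 reads added (1.16), the filter at T0 (1.14) and summed reads (1.04), whereas *LSM8* stayed lowest with the median over sgRNAs (1.39). *LSM2* was highest with the filter (2.40), the median (2.19) and summed reads (2.27), and *LSM6* stayed highest with 5 reads added (1.95). The intervals of *LSM6* (2.13 to 2.70) and *LSM8* (0.97 to 1.76) did not overlap, but they rest on the pooled spread. *LSM8* was 0.88 without medium replicate 2 and 1.85 without medium replicate 3, both outside its interval. The difference between these genes was not tested. Leaving out the library high replicate 2, medium replicate 2 or high replicate 3 left 5 members that passed, and with no replicate block 4 passed.

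On the other side, 3 members were lower in low than in medium and 0 were higher, against 1.54% of all genes called lower and 1.18% called higher. These were *LSM8* (log2 fold change −0.85 and −2.19, mean −1.52, SE 0.25, adjusted p = 0.0141, limma), *LSM4* (−1.28 and −1.36, mean −1.32, SE 0.10, adjusted p = 0.00066) and *LSM6* (−0.82 and −0.40, mean −0.61, SE 0.13, adjusted p = 0.0415). The mean was −1.06 for *LSM5* (adjusted p = 0.108), −0.73 for *LSM7* (adjusted p = 0.245), −0.66 for *LSM2* (adjusted p = 0.0855), −0.42 for *LSM3* (adjusted p = 0.492) and −0.17 for *LSM1* (adjusted p = 0.649). This count was unstable. It was 0 without the low library of replicate 3 and with no replicate block, 5 without the medium library of replicate 2, 6 with summed reads and 7 with the median over sgRNAs.

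The difference between the sides was tested itself, as high plus low minus 2 times medium on the log2 scale. None of the 8 members passed, against 0.0376% of all genes called higher, a result that turned under most alternatives. *LSM7* passed in 5 and *LSM6* in 4 of 6 alternatives, *LSM3* in 2 and *LSM2* in 1, while the count over all genes went to as many as 359, against 7 here. *LSM6* had 1.75 and 1.86 in the 2 screens (mean 1.80, SE 0.17, adjusted p = 0.0535, limma) and *LSM7* 1.38 and 1.45 (mean 1.41, SE 0.17, adjusted p = 0.0975), with unadjusted p of 2.29e-05 and 0.000102. *LSM3* (mean 1.52) and *LSM2* (mean 1.14) were also above 0 in both screens, with adjusted p of 0.463 and 0.498. *LSM4* had a mean of 0.21, *LSM5* 0.65, *LSM8* −0.15 and *LSM1* −0.26, and the screens had opposite signs for *LSM5* (1.52 and −0.23) and *LSM8* (0.82 and −1.13).

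The 4 sgRNAs of a gene were then read 1 by 1 with edgeR, whose test weighs the number of reads, on the 6 sorted libraries with the screen as a block. Of the 32 sgRNAs 30 had enough reads to be tested (10 reads in 2 or more of these 6 libraries). In high versus low, 22 of these were higher and 0 lower, against 2.94% and 1.55% of the 74339 sgRNAs tested against genes. All 22 were directed against *LSM2* to *LSM8*, and without the library high replicate 2 the count was 9. Of the 28 sgRNAs against these 7 genes, 25 had a positive fold change in both screens and 0 a negative one in both. The share of all sgRNAs with the same sign in both screens was not counted. sgRNAs to 1 gene share their target and are not replicates of each other. The filter used the same libraries that were compared, and *LSM4* sgRNA 3, *LSM6* sgRNA 4 and *LSM7* sgRNA 1 met it through high alone. *LSM7* sgRNA 1 is among the 22 called (adjusted p = 0.0211, edgeR), so its call is not independent of the filter. It had 49 and 21 raw reads in high, 0 and 6 in medium and 0 and 2 in low.

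All 4 sgRNAs passed for *LSM8* and for *LSM3*. For *LSM8*, sgRNA 2 had 98 and 57 scaled reads in high, against 10 and 0 in low (adjusted p = 8.23e-06, edgeR), and sgRNA 4 had 137 and 124 in high, against 15 and 18 in low (adjusted p = 4.56e-07). Its sgRNAs 1 and 3 had mean log2 fold changes of 1.72 and 2.34. For *LSM3*, sgRNA 1 had 268 and 215 scaled reads in high, against 27 and 31 in low (adjusted p = 8.5e-14), and the mean log2 fold changes of its sgRNAs ran from 2.07 to 3.02. Each of these sgRNAs had more reads in both high libraries than in either low library. How many of all sgRNAs do so was not counted.

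The other common subunits had 2 or 3 sgRNAs that passed. *LSM6* sgRNA 3, the most abundant of the 7 genes, had 498 and 357 scaled reads in high, against 62 and 68 in low (adjusted p = 8.8e-21, edgeR). *LSM2* sgRNA 4 had 200 and 187 in high, against 13 and 13 in low (adjusted p = 1.04e-14). *LSM7* sgRNA 2 had 221 and 154 in high, against 18 and 9 in low (adjusted p = 2.02e-13). *LSM5* had 3 sgRNAs that passed, of which sgRNA 2 had 144 and 81 in high, against 9 and 2 in low (adjusted p = 3.89e-09). *LSM4* had 2, of which sgRNA 1 had 201 and 128 in high, against 22 and 58 in low (adjusted p = 2.48e-06). None of these sgRNAs overlapped between high and low, which was not counted over all sgRNAs.

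The sgRNAs that did not pass had few reads, apart from those against *LSM1*. *LSM2* sgRNA 3 was hardly in the library, with 5 and 0 raw reads at T0, and *LSM5* sgRNA 1 fell to 3 and 13 raw reads in high, against 8 and 0 in low, so that neither was tested. *LSM4* sgRNA 3 had 26 and 12 raw reads in high, against 0 and 1 in low (adjusted p = 0.225, edgeR), and *LSM4* sgRNA 4 had 38 and 32 in high, against 19 and 0 in low (adjusted p = 0.23). *LSM6* sgRNA 4 had 37 and 15 raw reads in high, against 1 and 1 in low (adjusted p = 0.12). *LSM7* sgRNA 3 went opposite ways, with 49 raw reads in high, against 0 in low, in replicate 2 and 0 in high, against 7 in low, in replicate 3 (adjusted p = 0.735). The other 3 sgRNAs of *LSM7* were positive in both screens.

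The 4 sgRNAs against *LSM1* had many reads, and none passed. sgRNA 3 had 856 and 984 scaled reads in high, against 781 and 803 in low, and sgRNA 2 had 388 and 529 in high, against 390 and 423 in low. sgRNA 1 had 280 and 327 in high, against 318 and 399 in low, and sgRNA 4 had 161 and 145 in high, against 121 and 157 in low. Their mean log2 fold changes ran from −0.24 to 0.21, inside the central 95% of sgRNAs without a target (−0.69 to 0.37), and their adjusted p from 0.485 to 0.892 (edgeR).

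**Figure D4:**
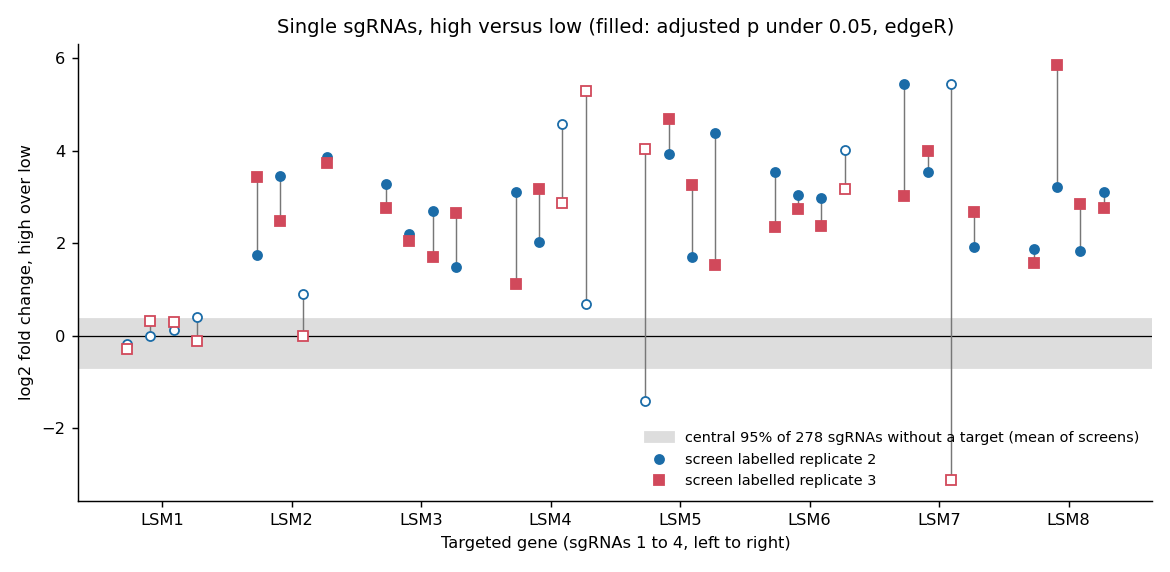
Log2 fold change of high over low for the 32 sgRNAs in the 2 screens (joined by a line, filled where the adjusted p is under 0.05 in edgeR). The gray band is the central 95% of sgRNAs without a target. It was taken from means over the 2 screens, whereas the points are single screens, so it is no measure of the spread of single points. The 22 filled sgRNAs all target *LSM2* to *LSM8*, the *LSM1* sgRNAs scatter around 0, and *LSM7* sgRNA 3 is split between 5.45 and −3.12.

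Against medium, fewer sgRNAs passed. In high versus medium 13 of the 30 were higher and 0 lower, against 1.13% and 0.121% of all sgRNAs tested. These were 3 each of *LSM2* and *LSM3*, 2 each of *LSM6* and *LSM7* and 1 each of *LSM4*, *LSM5* and *LSM8*. In low versus medium 1 was lower and 0 higher, against 0.756% and 0.642%, namely *LSM2* sgRNA 4 with 13 and 13 scaled reads in low, against 43 and 52 in medium (adjusted p = 0.0127, edgeR). The sgRNAs of *LSM2* to *LSM8* had a median of 12 raw reads in a low library and 27 in a medium one, against 236.5 at T0, which limits what a single sgRNA can show on that side.

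The loss of cells between T0 and sorting was read from the pool rebuilt out of the 3 populations. Here 7 members were lower and 0 higher than at T0, against 8.35% of all genes called lower and 2.54% called higher. The log2 fold change of the pool over T0 was −2.83 and −2.30 for *LSM2* (mean −2.57, SE 0.11), −2.59 and −2.39 for *LSM5* (mean −2.49, SE 0.10) and −2.14 and −2.71 for *LSM6* (mean −2.43, SE 0.11). It was −2.29 and −2.52 for *LSM8* (mean −2.41, SE 0.10), −1.77 and −2.15 for *LSM4* (mean −1.96, SE 0.10), −1.36 and −2.38 for *LSM7* (mean −1.87, SE 0.14) and −1.44 and −1.59 for *LSM3* (mean −1.51, SE 0.10). Their adjusted p lay between 6.09e-17 and 3.77e-11 (limma). *LSM1* had −0.05 and 0.15 (mean 0.05, SE 0.10, adjusted p = 0.802), against 0.24 ± 0.25 (SD over sgRNAs) for the sgRNAs without a target, and it came to −0.19 (adjusted p = 0.134) once all values were centred on these sgRNAs. Of the 28 sgRNAs against *LSM2* to *LSM8*, 26 were below T0 in both screens, which was not counted over all sgRNAs. In order of loss, the intervals of *LSM2*, *LSM5*, *LSM6* and *LSM8* overlapped, as did those of *LSM4*, *LSM7* and *LSM3* from neighbour to neighbour, and those of *LSM8* (−2.61 to −2.20) and *LSM4* (−2.17 to −1.75) did not. This order was not kept with medium alone against T0, where *LSM6* had the lowest value (−3.56), *LSM7* (−3.01) lay below *LSM8* (−2.77), *LSM3* had −2.30 and all 7 still passed.

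As total scaled reads, the sorted pool of *LSM2* knockout cells held 0.113 ± 0.015 of the T0 value (SD, n = 2 screens) and that of *LSM8* 0.187 ± 0.016. *LSM3* held the most of the 7, at 0.356 ± 0.024, and *LSM1* held 1.02 ± 0.042, against 1.17 ± 0.015 for sgRNAs without a target. Loss since T0 and a shift to high were thus both found in each of the genes *LSM2* to *LSM8*. Whether the sizes of the 2 changes are related was not tested. Both readouts use the high and low libraries, and the part that loss of cells has in the shift was not tested.

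The contrast between the marks of the 2 rings was taken within each screen. *LSM8* minus *LSM1* was 2.42 and 3.20 in the log2 fold change of high over low (mean 2.81 ± 0.55, SD, n = 2) and −2.24 and −2.67 in that of the pool over T0 (mean −2.46 ± 0.30). Both differences had 1 sign in both screens. An exact sign-flip test over 2 screens cannot go below p = 0.5, and the difference was not tested by any other method. The 95% limma intervals of the 2 genes did not overlap in either comparison. Against medium, *LSM8* minus *LSM1* was 1.74 and 1.18 on the high side and −0.68 and −2.02 on the low side.

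The patterns of the members were compared over 6 values, the log2 of high, medium and low over T0 in both screens. The Euclidean distance of *LSM1* from the other 7 ran from 5.14 to 7.99, and the distances among *LSM2* to *LSM8* from 0.93 to 3.04, with *LSM5* and *LSM8* the closest pair. Outside the family, the 3 genes nearest to *LSM8* among 18629 were *PFN1*, which encodes the actin binder profilin (distance 0.918), *U2AF1*, a splicing factor that reads the 3′ splice site (0.918), and *PRPF19*, a spliceosomal ubiquitin ligase (0.935). Nearest to the mean of *LSM2* to *LSM7* were *DDX23*, a helicase of the U5 particle (0.544), *PFN1* (0.852) and *U2AF1* (0.861). *DDX23* had a log2 fold change of 2.78 in high over low and −2.37 in the pool over T0. Nearest to *LSM1* were *MFSD5* (0.0771), *STUM* (0.0792) and *SERINC5* (0.0897), with log2 fold changes of high over low of 0.07, 0.05 and 0.05. The distances from *LSM1* and from *LSM8* have no common scale, since most genes changed little.

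Partners of both rings, the Sm ring and other genes with an LSm fold were counted from lists. These lists were chosen with earlier results of these data known, so their counts describe the genes and are no independent support. Of 10 partners of the cytoplasmic ring in messenger RNA decay (*PATL1*, *DCP1A*, *DCP1B*, *DCP2*, *EDC3*, *EDC4*, *DDX6*, *XRN1*, *EIF4ENIF1* and *PNRC2*), 0 were higher and 1 lower in high than in low, against 5.25% and 2.73% of all genes. The median log2 fold change was −0.15, against −0.01 over all genes and 2.81 over the 8 members. The gene that passed was *EDC4*, a scaffold of the decapping complex, with −0.72 and −0.81 (mean −0.77, adjusted p = 0.000546, limma), and it was also higher in low than in medium (mean 0.58, adjusted p = 0.0327). *PATL1*, which binds the LSM1 ring directly, had −0.17 (adjusted p = 0.49), and *DCP2*, the decapping enzyme, −0.32 (adjusted p = 0.14). None of the 10 passed in high versus medium, against 1.7% of all genes called higher and 0.0966% called lower. None passed in the pool versus T0 either, against 2.54% called higher and 8.35% called lower, and their median there was 0.01. With 10 genes, 0 calls lie near these shares.

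Of 12 factors that make, modify or assemble U6 RNA and its tri-snRNP, 9 were higher and 0 lower in high than in low, against 5.25% and 2.73% of all genes, with a median of 0.88. *SART3*, which recycles U6 and binds the LSM2 to LSM8 ring, had 2.73 and 3.42 (mean 3.08, adjusted p = 1.85e-07, limma), beside 2.35 to 3.03 for *LSM2* to *LSM8*. Its log2 fold change of the pool over T0 was −0.74 (adjusted p = 1.13e-05). *MEPCE*, which caps U6 and 7SK RNA, had 1.62, and the U4/U6 particle proteins *PRPF31*, *SNU13* and *PRPF3* had 1.86, 1.50 and 1.42. *TUT1*, which adds the uridine tail of U6, had 0.92, *PRPF4* 0.84, *SSB*, which binds new U6, 0.77, and *METTL16*, which methylates U6, 0.54 (adjusted p = 0.00951). The summed reads of *TUT1* were split nearly evenly, at 26.6% ± 0.54 in high and 24.4% ± 1.31 in low. *USB1*, which trims the tail of U6, had −0.01 (adjusted p = 0.977), *LARP7* −0.15 (adjusted p = 0.585) and *PPIH* −0.12 (adjusted p = 0.733).

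In the other comparisons part of these U6 factors passed. In high versus medium 5 of the 12 were higher, against 1.7% of all genes, namely *PRPF31* (1.55), *MEPCE* (1.47), *SART3* (1.30), *PRPF3* (1.12) and *SNU13* (0.82). In low versus medium 2 were lower, against 1.54% of all genes, *SART3* with −1.78 (adjusted p = 0.000247, limma) and *SNU13* with −0.68 (adjusted p = 0.0101). Against T0 7 were lower, beside 8.35% of all genes, from *SNU13* with −2.33, *PRPF31* with −1.57, *MEPCE* with −1.47, *PRPF3* with −1.36 and *PRPF4* with −1.22 to *TUT1* with −0.78 and *SART3*. The median was −0.76, against −2.18 over the 8 LSM genes and 0.04 over all genes.

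The 7 genes of the Sm ring, the sister ring on the other spliceosomal RNAs, were all higher in high than in low, against 5.25% of all genes, with a median of 1.23. *SNRPG* had 2.52 (adjusted p = 2.82e-07, limma), *SNRPF* 1.69, *SNRPB* 1.66, *SNRPD2* 1.23, *SNRPE* 1.19, *SNRPD3* 1.01 and *SNRPD1* 1.01. The largest of them thus reached the range of *LSM2* to *LSM8*. Against T0 7 of 7 were lower, beside 8.35% of all genes, with a median of −2.95, against −2.18 over the members. The values ran from −1.94 for *SNRPD2* and −2.52 for *SNRPD1* over −2.87 for *SNRPF*, −2.95 for *SNRPE*, −3.22 for *SNRPD3* and −3.42 for *SNRPG* to −3.89 for *SNRPB*. In high versus medium *SNRPG* (1.92), *SNRPD2* (1.30) and *SNRPF* (0.99) were higher, against 1.7% of all genes. In low versus medium *SNRPB* was lower (−1.15, adjusted p = 0.0016, limma), against 1.54% of all genes.

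Of 8 further genes with an LSm fold, 3 were higher and 1 lower in high than in low, against 5.25% and 2.73% of all genes, with a median of 0.06. *LSM11* had 1.47 (adjusted p = 5.67e-06, limma) and *LSM10* 0.74 (adjusted p = 0.00101). Both are ring subunits of the U7 particle, which takes part in the processing of histone messenger RNA. *LSM12* had 0.93 (adjusted p = 0.000622). *LSM14A*, a P-body protein, was lower at −0.52 (adjusted p = 0.0096). *LSM11* was the only 1 of the 8 that passed in high versus medium (0.99), against 1.7% of all genes called higher. None passed in low versus medium, against 1.54% called lower and 1.18% called higher. None of the 8 was lower than at T0, against 8.35% of all genes, and with 8 genes this lies near that share. There *LSM11* had −0.16 (adjusted p = 0.336) and *GEMIN6*, of the SMN complex, was higher at 0.35 (adjusted p = 0.0264), against 2.54% of all genes. In the asymmetry about medium none of the genes of these 4 lists passed, against 0.0376% of all genes called higher.

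**Figure D5:**
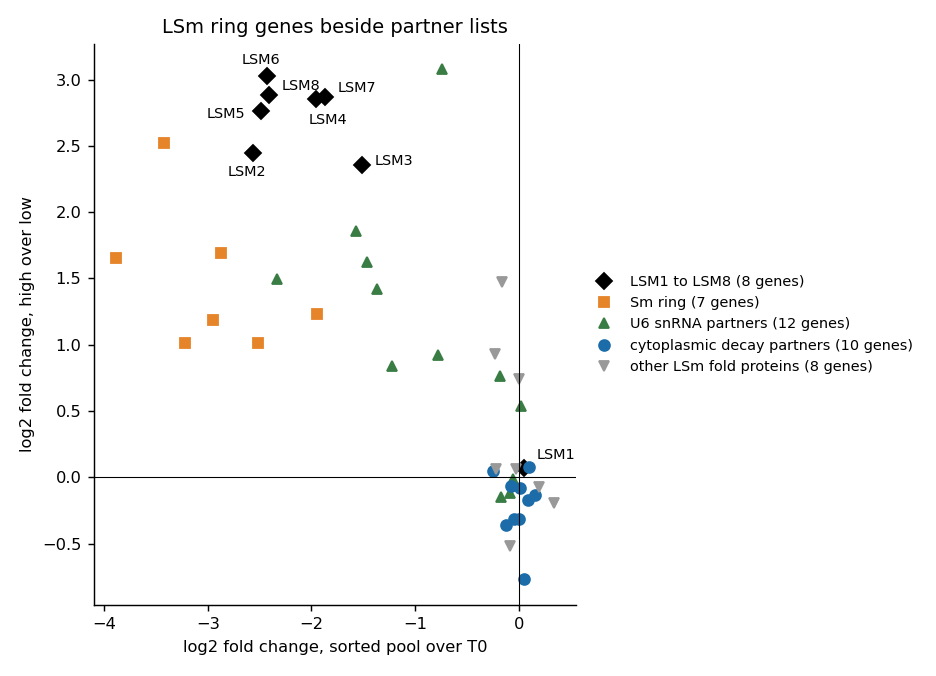
Log2 fold change of high over low against that of the sorted pool over T0 for the LSM genes and 4 lists of partners, with 1 point per gene (mean of 2 screens). *LSM2* to *LSM8* lie at the upper left, *LSM1* lies among the decay partners near the origin, *SART3* is the triangle at 3.08, and the Sm ring genes lie between −3.89 and −1.94 on the horizontal axis.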

How the data were processed

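Reads of the sgRNA cassette were counted by the authors with MAGeCK, and raw counts per sgRNA and sequencing lane were deposited. No aligner is named in the sources used here. Another 4 columns of the table match no sample and were not used. Lanes were matched to samples by title and summed (chi-square per degree of freedom 1.02 to 1.03 between lanes, 5.76 to 7.34 between screens). Of 18638 Ensembl identifiers, 18585 were named and placed through GENCODE release 44 (GRCh38). Following the study's methods, log2 fold changes within a screen were averaged over sgRNAs and tested with limma 3.58.1 (R 4.3.3, 18659 entries). The scaling to the library total, 1 added read and the rebuilt pool were chosen here, and core-essential genes were kept, unlike in the study. The test per sgRNA was the quasi-likelihood test of edgeR 4.0.16 with TMM. Populations of 1 screen come from 1 culture, so the screen is a block by construction. Same-numbered libraries deviated together at correlations of 0.13 (high and medium), 0.09 (high and low) and 0.13 (medium and low).

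All 8 members are named, as is every gene of the 4 lists (decay partners, U6 partners, Sm ring, other LSm fold) that passed a test, and the 3 nearest genes in pattern with at least 50 reads per sgRNA at T0 and 3 sgRNAs. The members and lists were chosen with earlier results of these data known. PCR reads are not independent molecules. Alternatives were another added read, filter, summary over sgRNAs, scaling, model and tool, and leaving out each library. Python 3.11.15 prepared the counts.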

Additional observations from a re-analysis of the deposited data

How the results depend on the processing

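In high versus low, *LSM2* to *LSM6* and *LSM8* passed under all 12 alternatives that could change the value and *LSM7* under 11, and in the pool versus T0 all 7 passed under the 8 alternatives with a test. With all libraries kept the sizes moved, from 4.12-fold (*LSM4*, 5 reads added) to 9.47-fold (*LSM5*, filter at T0) and 12.7-fold (*LSM7*, median over sgRNAs) in high versus low. The counts against medium were less stable. Members lower in low than in medium (3) became 5 with 5 reads added, 7 with the median over sgRNAs, 6 with reads summed over sgRNAs (chosen after seeing the data) and 0 with no replicate block, and 0 to 5 without 1 library. Members higher in high than in medium (7) became 4 with no replicate block, and 6 in the fit of 6 libraries with the block. Members with an asymmetry (0) became 2, 1, 3, 2 and 4 with 5 reads added, sgRNAs of at least 50 reads at T0, the median, centring on sgRNAs without a target and summed reads, and all genes (7) became 82, 102, 241, 126 and 359. Over all genes, high versus low calls (1487) were 642 to 1487 without 1 library, low versus medium calls (506) were 824 with the median, 802 with summed reads, 258 with no replicate block and 31 to 506 without 1 library, high versus medium calls (334) were 673, 919 and 1005 with the median, centring and summed reads, and pool versus T0 calls (2029) were 6256 with centring. *LSM8* minus *LSM1* in pool versus T0 became −2.85 with a mean of log2 values and −2.88 with medium alone. Member sgRNAs called (22) were 9 to 22 without 1 library, the lowest without high replicate 2, and all sgRNAs called (3343) were 2190 with DESeq2 and 1842 to 3409 without 1 library. The sign turned for *LSM3* in low versus medium without medium replicate 3 (−0.93 to 0.10 without 1 library), *LSM7* without low replicate 2 (−1.65 to 0.20), the asymmetry of *LSM4* (−0.30 with the filter, −0.072 with summed reads) and of *LSM8* (0.16 with 5 reads added and with the median, 0.21 with summed reads) and *LSM1* in pool versus T0 (−0.19 with centring), none past the threshold. The causes were not tested. The sgRNAs of *LSM2* to *LSM8* had a median of 12 raw reads in a low library, against 364.5 for those of *LSM1*, so these values rest on few reads.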
